A study of Homo sapiens with 4 samples.

Results

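Interleukin-6 (IL6), the chains through which it and its relatives signal, and the JAK-STAT3 route behind them were described by polysome profiling in MDA-MB-231, an established breast cancer line of mesenchymal, basal character. The genes are 2 ligands (IL6 and LIF), 4 receptor chains (IL6R, IL6ST, LIFR and OSMR), 2 kinases (JAK1 and JAK2), the transcription factor STAT3 and the inhibitor SOCS3. They were taken by exact symbol, with no threshold on their values, and all 10 were among the 28198 genes of the table. A mean of at least 1 FPKM (fragments scaled to transcript length and library depth) over the libraries was reached by 10905 genes and by 8 of the 10, while IL6R and JAK2 were below it.

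The cells were depleted of METTL3, the enzyme that writes N6-methyladenosine (m6A) on mRNA, and then given back METTL3 by lentivirus, either the wild-type protein (METTL3 WT) or the K177Q form (METTL3 K177Q), a glutamine substitution that stands for an acetylated lysine. Both genotypes thus shared the depletion, the viral vector, culture in DMEM with serum and a short treatment with cycloheximide, which holds ribosomes on mRNA before lysis. Sucrose gradient fractions were pooled into a sub-polysome fraction (free mRNA and mRNA with the subunits or a single ribosome) and a polysome fraction (mRNA with several ribosomes). The 4 libraries were therefore METTL3 WT sub-polysome, METTL3 WT polysome, METTL3 K177Q sub-polysome and METTL3 K177Q polysome, all labelled as replicate 2, with 1 library per condition. Other replicates of the experiment were not analysed here, and the genotypes are called WT and K177Q below. No difference could be set against the spread between replicates, no test was made, and every comparison below is between individual libraries. The comparison of genotypes asks whether the K177Q form goes with another distribution of these mRNAs over the gradient.

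As background, IL-6 binds its own receptor chain, IL-6R, on the cell surface or in a soluble form, and the pair engages the shared signalling chain gp130, encoded by IL6ST. LIF uses gp130 together with LIFR, and oncostatin M uses gp130 with OSMR or LIFR. Receptor-bound JAK kinases phosphorylate the chains and STAT3, which then enters the nucleus, and SOCS3, itself a STAT3 target, binds gp130 and JAK and dampens the signal. In breast cancer cells of this character, autocrine IL-6 and STAT3 activity are well known. IL6 mRNA is a textbook short-lived message, with AU-rich elements in its 3′ untranslated region (UTR).

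The sequences around the start codons are shown first because the comparison is about translation and because the genes differed there. Each is 9 bases on either side of the ATG, which is in capitals, read 5′ to 3′ on the mRNA strand from the GENCODE 44 annotation of hg38. A purine 3 bases before the ATG and a G just after it are the best known features of a strong start context.
IL6, chr7:22727254-22727274, plus strand: agcccagctATGaactccttc
LIF, chr22:30246684-30246704, minus strand: cagcccataATGaaggtcttg
IL6ST, chr5:55976267-55976287, minus strand: ccgcgcaagATGttgacgttg
LIFR, chr5:38530636-38530656, minus strand: attgcacagATGatggatatt
OSMR, chr5:38869036-38869056, plus strand: ccagaactgATGgctctattt
STAT3, chr17:42348505-42348525, minus strand: tttagcaggATGgcccaatgg
SOCS3, chr17:78359084-78359104, minus strand: ccgtgcgccATGgtcacccac
A purine stood 3 bases before the ATG in 6 of the 10 genes, against 87.6% of the mRNAs kept, and the exceptions were LIFR, OSMR, JAK1 and JAK2. G followed the ATG in 4 of 10, against 54.7%. Only SOCS3 and STAT3 of the 10 had both, against 47.8% of mRNAs. An ATG upstream in the 5′ UTR was present in 6 of 10, namely IL6R, JAK2, IL6ST, LIF, LIFR and SOCS3, against 37.6%. These are matches of letters in 1 annotated transcript per gene and say nothing of use.

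The 3′ UTR of IL6 had the most matches per length to ATTTA, the core of AU-rich elements. It holds the motif 6 times in 425 bases, or 14.1 per 1000 bases, while the longer 3′ UTRs of LIFR, IL6ST and JAK2 hold more by number, at 29, 23 and 12, and 0.410% of the mRNAs kept had as many or more per 1000 bases. The window below, chosen as the densest 30 bases, starts 123 bases after the stop codon, and its capitals mark the motif.
IL6, chr7:22731697-22731726, plus strand: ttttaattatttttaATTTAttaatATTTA
Every one of the 10 genes held ATTTA in its 3′ UTR, against 71.0% of mRNAs. LIFR followed IL6 at 4.19 per 1000 bases and IL6ST at 3.84, while IL6R was lowest at 1.47, against a median of 1.61 over all mRNAs kept. GGACT, the most typical of the sequences that METTL3 methylates, was present in the mRNA of 9 of the 10 genes, against 90.3% of mRNAs, and IL6 was the one without it. The sense strand of the mRNA was searched for both motifs. Matches to GGACT cannot overlap, while overlapping matches to ATTTA were each counted. The sites in the coding sequences of the second ligand and of the inhibitor are shown, with the motif in capitals.
LIF, chr22:30243989-30244005, minus strand: cgtgacGGACTtcccgc
SOCS3, chr17:78358483-78358499, minus strand: ccacctGGACTcctatg
LIF held 10 such matches in all, OSMR 9, JAK1 8 and LIFR 7. Whether any of them carries m6A was not measured in these libraries. Other sequences that METTL3 methylates were not searched, so the lack of GGACT does not set IL6 apart as unmethylated. The study reported METTL3-dependent m6A on IL6 mRNA in MDA-MB-231 cells.

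An approximate 24900000 to 26800000 fragments lay behind each library, and 15773 to 16193 genes were above 0. The fragments were estimated from the lowest values of each column, those between 0.024 and 0.05 FPKM times kilobases. This preset window limits how far apart the estimates can be, so they do not show that the libraries were alike in depth. METTL3 was read at 9.39 and 38.7 FPKM in the sub-polysome and polysome libraries of WT cells and at 5.07 and 29.5 FPKM in those of K177Q cells, and reads from the endogenous gene and the transgene cannot be told apart. The markers of the line, VIM, CD44, KRT18, AXL and CAV1, were at 88.6 to 1543 FPKM, and ESR1 was at most 0.0119 FPKM and CDH1 at most 0.632 FPKM, while EPCAM, also listed as low in these cells, stood at 6.20 to 9.91 FPKM. Of the markers of other cells, CD3E was at 0 in every library and PTPRC at most 0.0515 FPKM, VWF was at most 0.0399 FPKM, PECAM1 was at 0.537 to 1.81 FPKM, and CD68 was at 49.0 to 102 FPKM. FPKM is a share of each library, so an mRNA can be high in one library because others are low there, and fewer cells with an mRNA cannot be told from less mRNA per cell.

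IL6 was by far the most abundant of the 10 mRNAs. It was at 174 FPKM in WT sub-polysomes, 186 in WT polysomes, 194 in K177Q sub-polysomes and 218 in K177Q polysomes. Its mean of 193 FPKM placed it at the 93.9th percentile of the 10905 genes kept. Both fractions of K177Q cells were above both of WT cells, within a whole range of 1.26-fold. The study itself reported IL6 mRNA as reduced in K177Q cells, by RNA-seq and QRT-PCR. Its list of reduced transcripts, with IL6 among them, required a change of more than 1.5-fold. Those measures used RNA not split over a gradient and are unlike the values of these 4 libraries. On the FPKM as given, the direction here was the opposite in both fractions, and the reason was not tested. LIF, the second ligand, was at 9.20 and 10.7 FPKM in the sub-polysome and polysome libraries of WT cells and at 12.9 and 14.3 FPKM in those of K177Q cells. It too was higher in both K177Q libraries than in either WT library, and its mean was 11.8 FPKM. These orders of IL6 and LIF were read on the FPKM as given, while library totals ran from 767949 to 1037590. They depend on that scale: under TPM, IL6 in sub-polysomes was lower in K177Q than in WT cells, at a log2 difference of -0.05.

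The receptor side was uneven. IL6ST, the signalling chain, was at 21.2 FPKM in WT sub-polysomes, 11.7 in WT polysomes, 21.0 in K177Q sub-polysomes and 12.2 in K177Q polysomes. It separated by fraction and not by genotype: both sub-polysome libraries were high and both polysome libraries low. OSMR, the partner chain for oncostatin M, was at 16.1 and 17.7 FPKM in WT sub-polysomes and polysomes and at 18.3 and 23.5 FPKM in those of K177Q cells. LIFR, the partner chain for LIF, was low throughout, at 1.80 and 1.36 FPKM in WT sub-polysomes and polysomes and 1.91 and 2.05 FPKM in those of K177Q cells. Its WT polysome library was the lowest of the 4 and its K177Q polysome library the highest. IL6R, the chain that binds IL-6 itself, was at 0.174, 0.169, 0.121 and 0.140 FPKM in the same order of libraries, a mean of 0.151 FPKM, which rests on an approximate 17.5 to 26.8 fragments per library.

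Behind the receptors, STAT3 was at 17.5 and 20.4 FPKM in the sub-polysome and polysome libraries of WT cells and at 17.4 and 22.8 FPKM in those of K177Q cells. Its sub-polysome values were all but equal, and both polysome values were above them. JAK1, a kinase bound to gp130, was at 7.74 and 9.15 FPKM in WT sub-polysomes and polysomes and at 7.98 and 10.8 FPKM in those of K177Q cells, and both polysome values were again above both sub-polysome values. JAK2 was at 0.519, 0.658, 0.628 and 0.435 FPKM in the same order of libraries. SOCS3, the inhibitor, was at 13.6 and 12.9 FPKM in WT sub-polysomes and polysomes and at 15.7 and 13.8 FPKM in those of K177Q cells, the narrowest range of the 10 at 1.22-fold.

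**Figure D1:**
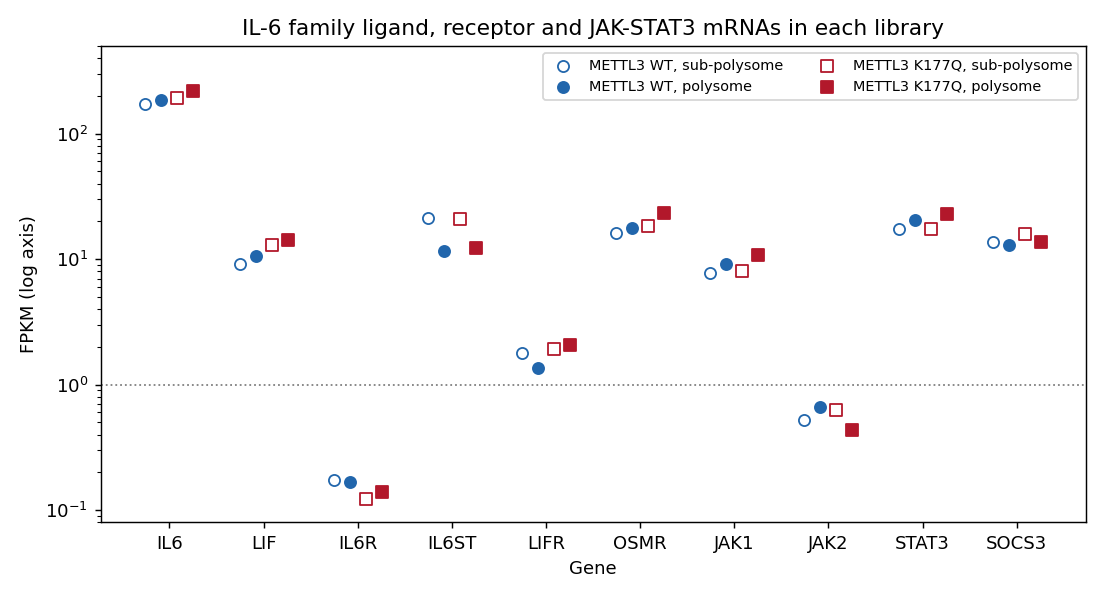
FPKM of the 10 genes on a log axis, 1 point per library, with no error bars because each condition has 1 library; blue circles are WT, red squares K177Q, open symbols sub-polysomes and filled ones polysomes, and the dotted line is 1 FPKM. IL6 lies between 174 and 218 FPKM, LIFR between 1.36 and 2.05 FPKM and JAK2 and IL6R under 1 FPKM, with the other genes between 7.74 and 23.5 FPKM.

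By mean level per length, the order was IL6, STAT3, OSMR, IL6ST, SOCS3, LIF, JAK1, LIFR, JAK2 and IL6R. IL6 was 9.88-fold above STAT3, the gene next to it. The steps from STAT3 to OSMR (1.03-fold), OSMR to IL6ST (1.14-fold), IL6ST to SOCS3 (1.18-fold) and SOCS3 to LIF (1.19-fold) were small, and the order of each of these pairs was not the same in all 4 libraries, so that these neighbours cannot be ordered. LIF was above JAK1 in all 4 libraries, by 1.32-fold in the mean. JAK1 was 5.02-fold above LIFR, LIFR 3.18-fold above JAK2 and JAK2 3.71-fold above IL6R, in all 4 libraries, steps that were larger than the 1.40-fold to 1.51-fold ranges of these genes across the conditions. The ligand was thus near the top of the expressed genes and its own binding chain at the foot of the set.

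The distribution over the gradient was read as the log2 ratio of polysome to sub-polysome FPKM, with 0.1 added to each value, and calls were made past 1.5-fold in either direction. IL6ST was the one gene of the 8 past it. It was lower in polysomes than in sub-polysomes with a log2 ratio of -0.85 (0.554-fold) in WT and -0.78 (0.582-fold) in K177Q cells, at the 12.6th and 16.5th percentile of all genes kept. None of the 8 was higher. Of all genes, 28.1% were higher and 19.1% lower in WT cells, and 30.2% were higher and 21.3% lower in K177Q cells, so that 1 of 8 lower and 0 of 8 higher stood below both background shares. When every library was scaled to the same total (TPM), IL6ST remained lower in polysomes in both genotypes but was no longer past 1.5-fold in K177Q cells, where 4 of the 8 genes were then higher. TPM changed the background there from 3292 genes higher and 2321 lower to 5595 and 1399.

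IL6 itself was spread almost evenly. Its log2 ratio was 0.10 for WT and 0.17 for K177Q, at the 47.6th and 50.2nd percentile. The ratios of LIF were 0.21 and 0.15. STAT3 had ratios of 0.23 and 0.39, JAK1 of 0.24 and 0.43 and OSMR of 0.13 and 0.36, each higher in K177Q cells. SOCS3 was on the sub-polysome side in both, at -0.07 and -0.19, though on the polysome side in both under TPM, at 0.06 and 0.24. LIFR was the one gene kept whose direction differed between genotypes, at -0.38 for WT and 0.10 for K177Q, and the second value was -0.01 with median-of-ratios size factors and -0.06 when centred on the median gene. When centred on the median gene, IL6 and OSMR were at -0.05 and -0.01 in WT cells and LIF at -0.02 in K177Q cells. The median of the 8 ratios was 0.12 for WT and 0.16 for K177Q, beside 0.14 and 0.16 over all genes kept.

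**Figure D2:**
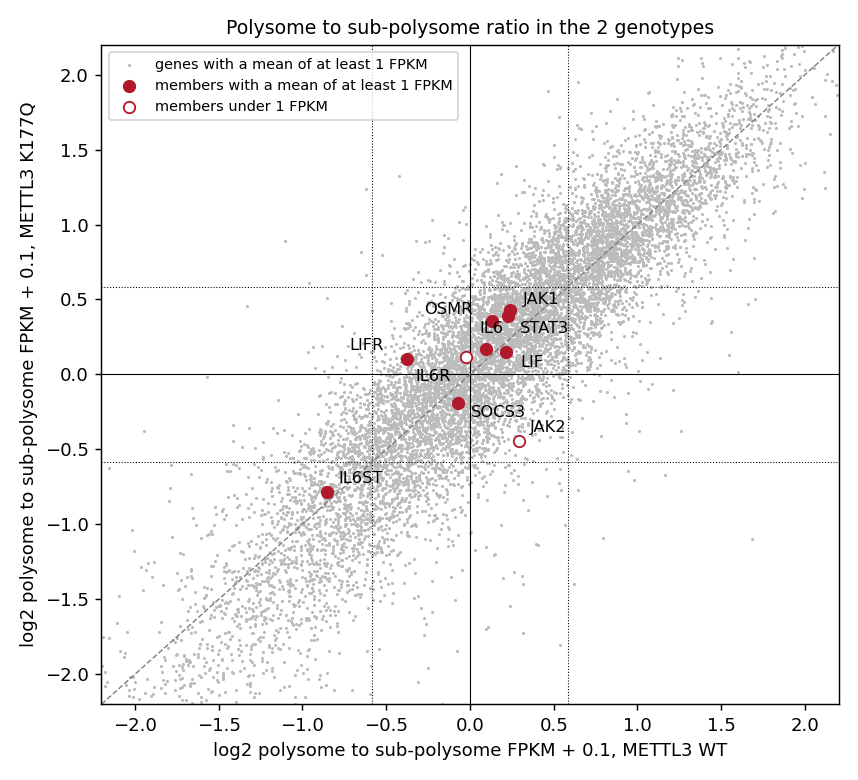
Log2 ratio of polysome to sub-polysome FPKM (0.1 added) in WT cells on the x axis and in K177Q cells on the y axis; grey points are all genes kept, filled red points the 8 genes kept, open ones IL6R and JAK2, dotted lines 1.5-fold and the dashed line equal ratios, and a few grey points lie outside the axes. IL6ST lies near the dashed line at -0.85 and -0.78, and LIFR above it at -0.38 and 0.10.

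Within polysomes, all 8 genes were higher in K177Q than in WT cells, none past 1.5-fold. Background shares past 1.5-fold were 2.13% higher and 3.13% lower (232 and 341 genes, and 386 and 265 under TPM), and 46.2% of all genes were above 0. LIFR had the largest difference (log2 0.56, 1.47-fold, standard error from counting 0.0955), followed by LIF (0.42, 1.34-fold), OSMR (0.41, 1.33-fold), JAK1 (0.24, 1.18-fold) and IL6 (0.23, 1.17-fold). STAT3 (0.16), SOCS3 (0.09) and IL6ST (0.06) were closest to equal, with counting standard errors of 0.0386, 0.0657 and 0.0383. LIFR was at the 97.5th percentile of all genes kept, LIF at the 95.0th, OSMR at the 94.6th and IL6 at the 84.5th, and the median of the 8 was 0.23 beside -0.02 over all genes. LIFR was past 1.5-fold with a pseudocount of 0.01, under TPM and when totals were set equal after leaving out ribosomal proteins. The 8 remained above 0 under each scaling planned, TPM included. With the trend on coding length removed, IL6ST was the exception at -0.00034.

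Within sub-polysomes the same comparison gave a different picture. LIF had the largest difference there (log2 0.48, 1.40-fold, counting standard error 0.0621). SOCS3 (0.21), OSMR (0.19) and IL6 (0.16) followed, LIFR was at 0.08 and JAK1 at 0.04, and STAT3 and IL6ST were all but equal, at -0.00399 and -0.0092. Past 1.5-fold were 0 of the 8, against 4.01% of all genes higher and 2.94% lower, and the median of the 8 was 0.12. The direction of the smaller differences depended on the scale. Under TPM the median of all genes moved to -0.21 and the background from 437 genes higher and 321 lower to 209 and 1098, and IL6 was then at -0.05, LIFR at -0.11, OSMR at -0.02 and JAK1 at -0.16. LIF thus had like values in both fractions, at 0.48 and 0.42, while LIFR had 0.08 in sub-polysomes and 0.56 in polysomes.

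**Figure D3:**
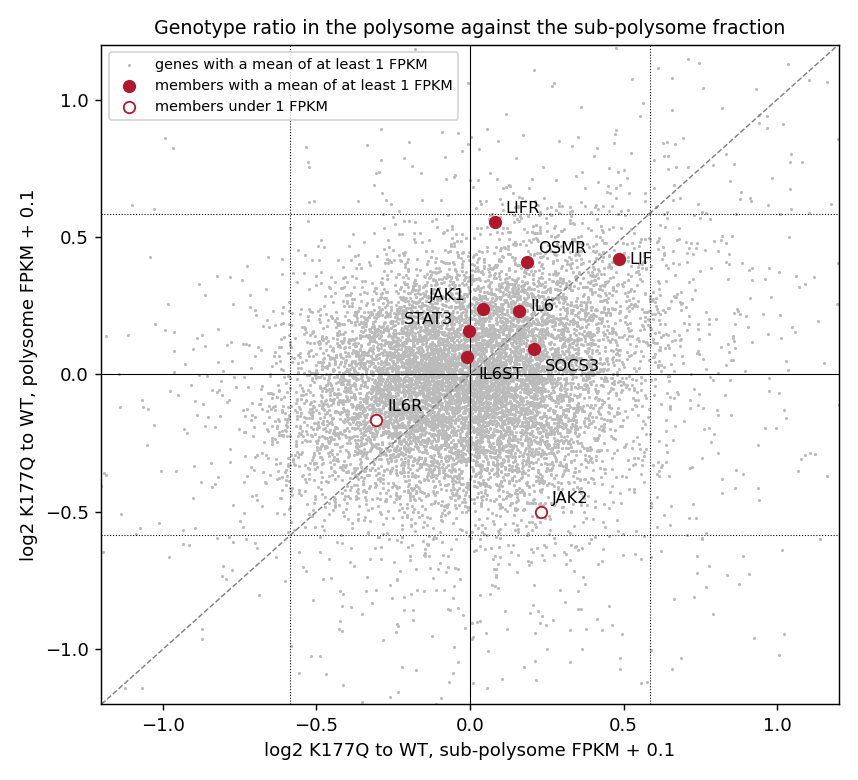
K177Q against WT as a log2 ratio, within sub-polysomes on the x axis and within polysomes on the y axis, with symbols and lines as in the plot of fractions; a few grey points lie outside the axes. LIF lies right of the others (0.48 and 0.42), LIFR near the y axis (0.08 and 0.56), and the filled points are all above 0 in polysomes.

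Translation efficiency was taken as the polysome to sub-polysome ratio, and its log2 difference between genotypes combines the 4 libraries. None of the 8 genes was past 1.5-fold, against a background of 4.08% higher and 7.03% lower (445 and 767 genes, but 2070 and 315 under TPM). LIFR had the largest value at 0.48 (1.39-fold, counting standard error 0.132, 92.7th percentile). OSMR followed at 0.22 (1.17-fold, standard error 0.0558), JAK1 at 0.19 (0.0845) and STAT3 at 0.16 (0.0580). IL6 was at 0.07 (1.05-fold, standard error 0.0384), at the 58.7th percentile, and IL6ST also at 0.07 (0.0481). LIF was at -0.06 (0.956-fold, 0.0848) and SOCS3 at -0.12 (0.922-fold, 0.0913). IL6, IL6ST, LIF and SOCS3 were each less than 2 counting standard errors from 0. These errors leave out the spread between libraries, and the place of 0 depends on the scale, so no gene is called different by them. The median of the 8 was 0.12, with 6 above 0, beside a median of -0.01 and 48.9% above 0 over all genes. TPM moved the median of all genes to 0.29 and that of the 8 to 0.41, with LIFR then past 1.5-fold and LIF and SOCS3 above 0, at 0.23 and 0.18.

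The values followed the length of the coding sequence. The 3 genes with short coding sequences, IL6 (639 bases), LIF (609) and SOCS3 (678), had translation efficiency ratios from -0.12 to 0.07, while the 5 with long ones, STAT3 (2313 bases), IL6ST (2757), OSMR (2940), LIFR (3294) and JAK1 (3465), had ratios from 0.07 to 0.48. Spearman's rho was 0.833 over these 8 genes, which share the same 4 libraries, and 0.461 over 10249 mRNAs, given as descriptions. In the 2576 mRNAs with the shortest coding sequences, of 78 to 813 bases, the median translation efficiency ratio was -0.23, against 0.19 in the 2558 with the longest, of 2112 to 26394 bases. Beside mRNAs of their own length group, IL6, LIF and SOCS3 were above the median of -0.23, and of the long genes LIFR, OSMR and JAK1 were at or above 0.19 and IL6ST and STAT3 below it. With the trend on coding length removed, the median of the 8 was 0.04. The part of length in the genotype difference was not tested.

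IL6R and JAK2 were below the filter and are given with their counting error. The ratios have 0.1 added to each FPKM, which shrinks them in genes this low, while the errors do not. Ratio and error are thus not on quite the same scale here. The translation efficiency ratio of IL6R was 0.14 with a standard error of 0.613, so no difference was detectable at this depth. That of JAK2 was -0.73 (0.601-fold) with a standard error of 0.288, from log2 ratios of 0.29 in WT and -0.44 in K177Q cells. In polysomes JAK2 was lower in K177Q than in WT cells, at -0.50 with a standard error of 0.207, which is not past 1.5-fold. It rests on an approximate 80.6 to 122 fragments per library. The error covers counting only, with 1 library per condition, so no decrease is called. The kinases differed in level, with means of 8.92 FPKM for JAK1 and 0.560 FPKM for JAK2.

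The genes stand on several chromosomes. IL6 lies on the plus strand at chr7:22727200-22731998 with 5 exons, IL6ST on the minus strand at chr5:55935095-55994963 with 17, and STAT3 on the minus strand at chr17:42313324-42388442 with 24. LIFR (chr5:38474668-38556646, minus) and OSMR (chr5:38846012-38935641, plus) are near each other on chromosome 5. LIF lies at chr22:30240453-30246759, SOCS3 at chr17:78356778-78360077, JAK1 at chr1:64833229-64966549, JAK2 at chr9:4985272-5129948 and IL6R at chr1:154405343-154469450.

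Around these genes, 85 others of the pathway were listed in 8 groups, of which 68 were kept. In translation efficiency, 4 passed 1.5-fold upward and 2 downward from WT to K177Q, 45 of 68 were above 0, and the median was 0.12. The background was 4.08% higher and 7.03% lower, against 5.88% and 2.94% here. Under TPM, 22 of the then 69 genes kept were higher and 0 lower, with a median of 0.42. The background rose as well, to 2070 higher and 315 lower of 11143 genes, with a median of 0.29.

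The other ligands of the gp130 family that were kept had translation efficiency ratios below 0, though not lower levels throughout. All 4 had a median of -0.48, while 48.9% of all genes were above 0, and the median remained below 0 under TPM (-0.19), beside 0.29 over all genes. The mRNAs with the shortest coding sequences had a median of -0.23. The ligands were not compared with mRNAs of their own coding length, and a part of length was not tested. IL11, which signals through gp130 with its own binding chain, was the most abundant at 286 FPKM in WT sub-polysomes, 213 in WT polysomes, 362 in K177Q sub-polysomes and 185 in K177Q polysomes, a ratio of -0.54. CTF1, cardiotrophin-1, was past 1.5-fold at -0.82, from 12.1 and 10.7 FPKM in WT and 17.7 and 8.87 FPKM in K177Q cells, though not under TPM (-0.53). In sub-polysomes all 4 were above 0 from WT to K177Q, with log2 differences of 0.34 for IL11, 0.55 for CTF1, 0.33 for CLCF1 and 1.01 for EBI3. In polysomes the values were -0.20 for IL11, -0.27 for CTF1, 0.0023 for CLCF1 and 0.58 for EBI3. IL27 and IL31 were listed at 0 in every library. Of the other receptor chains and sheddases, 6 of 7 were kept and none was past 1.5-fold, with a median of 0.11. ADAM17, which cleaves IL-6R from the membrane, was at 9.66 and 5.90 FPKM in WT and 10.4 and 7.40 FPKM in K177Q sub-polysomes and polysomes, a ratio of 0.22.

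Of the other JAK and STAT genes, 6 of 8 were kept, 1 was higher and the median was 0.04. TYK2, the third JAK of the gp130 receptors, was that gene, at 15.7 and 32.3 FPKM in WT and 11.9 and 37.0 FPKM in K177Q sub-polysomes and polysomes, a ratio of 0.59. Of the 12 inhibitors kept, 1 was higher and 1 lower, with a median of 0.27. SOCS1, a close relative of SOCS3, was lower at -0.64, from 31.6 and 8.98 FPKM in WT and 45.0 and 8.17 FPKM in K177Q sub-polysomes and polysomes, but not past 1.5-fold under TPM (-0.34). SOCS5 was higher at 0.61 on low values of 2.67 to 3.88 FPKM. The SOCS members thus did not share a direction. The 5 genes kept of the SHP2, RAS and PI3K branch were all above 0, none past 1.5-fold, with a median of 0.18, and the adaptor GRB2 was at 0.07.

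Among 18 STAT3 targets kept, 1 was higher in translation efficiency, MMP9, a secreted protease, at 0.87 on levels of 1.10 to 3.05 FPKM. TIMP1, a protease inhibitor, was the most abundant, at 909 and 1656 FPKM in WT and 1384 and 2008 FPKM in K177Q sub-polysomes and polysomes, and its ratio was -0.33. The median of the targets was 0.11. Of the 10 RNA-binding genes known to act on IL6 mRNA that were kept, none was past 1.5-fold, with a median of 0.19, and HNRNPD, which binds AU-rich elements, was at 0.31. The 8 genes of transcriptional inputs to IL6 had a median of 0.16. CEBPB, an activator of the IL6 promoter, was at -0.06, and NFKBIZ, an inducible co-activator, was past 1.5-fold at 0.59. With size factors, TYK2 and NFKBIZ were no longer past it.

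Within polysomes, 5 of the 68 genes were higher past 1.5-fold in K177Q cells, or 7.35% beside a background of 2.13%, 0 were lower, and 52 were above 0. These 5, named after their values were seen, were the STAT3 targets VEGFA (0.64), FOS (0.69) and MMP9 (0.79) and the genes ZFP36 (0.61) and ZFP36L1 (0.68), whose proteins bind AU-rich elements. FOS and MMP9 were low, FOS at 1.05 to 1.75 FPKM. VEGFA was at 53.8 FPKM in WT and 83.9 FPKM in K177Q polysomes. Of the STAT3 targets, 16 of 18 were above 0, with a median of 0.32. Over all genes, 46.2% were above 0, with a median of -0.02. The RNA-binding genes had a median of 0.08. Medians of the other lists ran from -0.10 for the ligands to 0.27 for the receptor chains and sheddases. TPM gave 8 of 69 higher in polysomes and 0 lower, beside 386 and 265 of all 11143 genes. Within sub-polysomes 2 of the 68 were higher, EBI3 (1.01), a subunit of IL-27, and TIMP1 (0.61), and 0 were lower, or 2.94% higher beside a background of 4.01% higher and 2.94% lower. Under TPM, 1 (EBI3) of 69 was higher and 6 were lower. Of all 11143 genes kept then, 209 were higher and 1098 lower, so neither count was above its background share. Those 6 were HNRNPD, IKBKB, PTPN11, SOCS4, SOCS5 and TYK2. EBI3 and TIMP1, like these 6, were named after their values were seen.

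**Figure D4:**
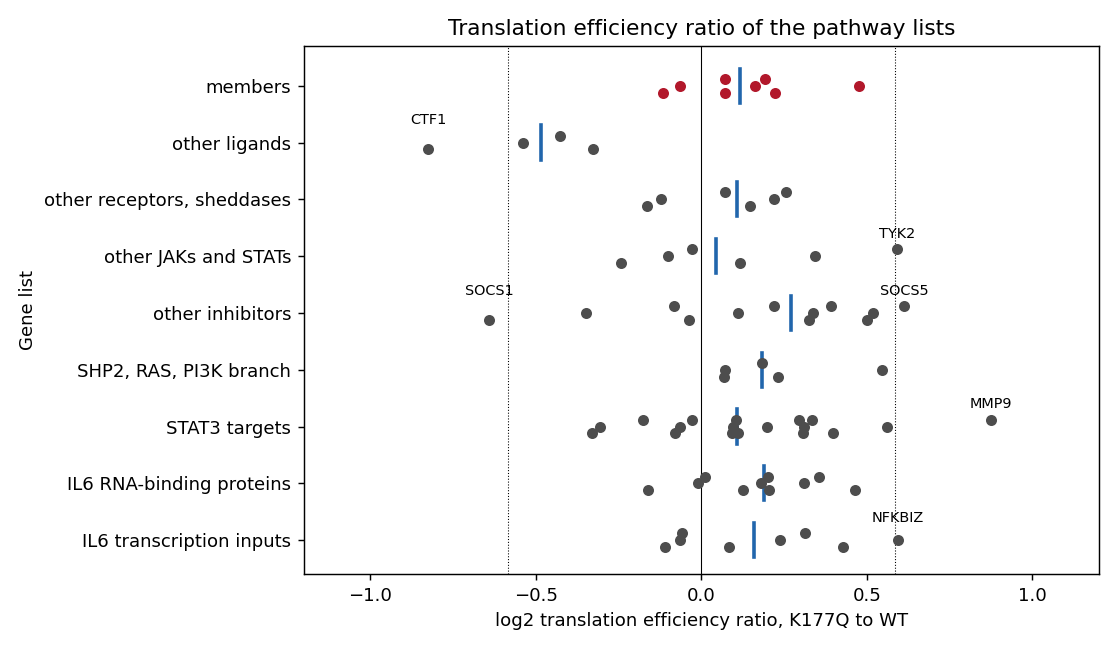
Translation efficiency ratio of K177Q to WT (log2), 1 point per gene kept, with the 8 genes in the top row in red and the 8 pathway lists beneath; blue bars are medians and dotted lines 1.5-fold, and vertical offsets within a row only separate points. The other ligands lie below 0 with a median of -0.48, and the medians of the other lists lie between 0.04 and 0.27.

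The genes whose pattern over the 4 libraries was most like that of IL6, by Euclidean distance between centred log2 values among 10904 genes, were ARNT (0.0205), C19orf44 (0.0301) and APLN (0.0367). For STAT3 they were DMBT1 (0.0198), PLEKHM1 (0.0303) and EIF4ENIF1 (0.0356), and for IL6ST they were FAM189B (0.0205), ZBED3 (0.0352) and MXI1 (0.0424). With 4 libraries and this many genes, some close matches are always found, and nothing is read from them.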

How the data were processed

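RNA of pooled sub-polysome and polysome fractions was poly(A)-selected and sequenced from strand-directional libraries on the NovaSeq6000. The authors deposited FPKM per gene, used as given. The submitters' processing notes name STAR 2.7, StringTie 2.1.5 and hg38, with no role or order, and the annotation is not given in the sources used here. Another 4 value columns, of another replicate by their names, belong to none of the samples given and were not analysed here. Libraries were grouped by their titles.

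Ratios were computed on log2(FPKM + 0.1), a scale that understates differences of low genes, for genes averaging 1 FPKM or more, and counted past 1.5-fold. Fragments, and the counting errors made from them, were approximated from the lowest cluster of FPKM times length in kilobases. That cluster was preset as 0.024 to 0.05, and errors cover counting only. Positions, lengths, motifs and sequences came from GENCODE 44 on hg38, in which 25564 genes were matched by symbol. Protein sequences were not used here, so the planned protein comparison was replaced by coding length. The alternatives were pseudocounts of 0.01 and 1, means of at least 0.1 or 5 FPKM or no filter, TPM, size factors, equal totals without 87 ribosomal protein genes (each library scaled to the average of the remaining totals), centring and a 2-fold threshold. Removing the trend on coding length (lowess, span 0.3) was added after seeing the data. For the equal totals, the common total was also settled after a first run.

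The genes and lists were chosen with earlier results of these data known. Named were the 10 genes, METTL3, the most abundant gene of each list, those past 1.5-fold in translation efficiency, and the 3 genes most alike to IL6, STAT3 and IL6ST. Cell type markers were named as a check, IL27 and IL31 as ligands listed at 0, and CLCF1, EBI3, VEGFA, FOS, ZFP36, ZFP36L1 and, under TPM, further genes after their values were seen. The software was matplotlib 3.10.9, statsmodels 0.14.6, scipy 1.17.1, numpy 2.4.6, pandas 2.3.3 and Python 3.11.15, and the ratio step was tested on simulated data.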

Additional observations from a re-analysis of the deposited data

Results flagged for a closer look

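In 3 genes the difference had opposite signs in the 2 settings compared. IL6ST differed between METTL3 K177Q and METTL3 WT cells by 0.0624 (log2) in polysomes and -0.0092 in sub-polysomes. For STAT3 the values were 0.16 and -0.00399. LIFR had a polysome to sub-polysome ratio of -0.38 in METTL3 WT and 0.10 in METTL3 K177Q cells, the second with a counting error of 0.0883. That second value was -0.01 with median-of-ratios size factors and -0.06 when centred on the median gene. With 1 library per condition none of these differences was tested, and the sub-polysome values of IL6ST and STAT3 are smaller than their counting errors of 0.0291 and 0.0434.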

How the results depend on the processing

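No paired analysis was possible because each condition has 1 library analysed here. Of 145 counts and medians of the genes under other settings, 122 kept their direction and stayed close to the values above, as did all 15 with the trend on coding length removed. A pseudocount of 0.01 put 1 gene (LIFR) higher in polysomes. With a mean of at least 0.1 FPKM or no filter, 1 of 10 genes (JAK2) was lower in translation efficiency. The background was 1571 of 14203 and 2140 of 28198 genes lower, a share near that of 1 in 10. Under TPM, 1 gene was higher in translation efficiency (median 0.41) and 1 in polysomes, the median polysome to sub-polysome ratio was 0.25 in METTL3 WT and 0.59 in METTL3 K177Q cells (4 higher, 0 lower), and the sub-polysome median was -0.0802. Equal totals without ribosomal protein genes gave 1 higher in translation efficiency (median 0.35), 1 higher in polysomes, 2 higher and 0 lower between fractions in METTL3 K177Q cells (median 0.37) and a sub-polysome median of -0.0746. Size factors gave a median of 0.0477 between fractions in METTL3 K177Q cells, and centring gave -0.0294 in METTL3 WT and -0.0062 in METTL3 K177Q cells. At 2-fold, 0 genes were lower between fractions in METTL3 WT and 0 in METTL3 K177Q cells. The cause was not tested.

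Over all genes, 445 were higher and 767 lower in translation efficiency, against 2070 and 315 under TPM, 1522 and 327 with equal totals, 1215 and 1571 at a mean of at least 0.1 FPKM, 88 and 410 at 5 FPKM, 1823 and 2140 without a filter and 84 and 207 at 2-fold. A pseudocount of 1 gave 159 higher, and removing the trend gave 403 lower. The genes counted were 10905 in the main setting, 11143 under TPM and 10825 with equal totals. They were 14203 at 0.1 FPKM, 7208 at 5 FPKM, 28198 without a filter and 10260 without the trend. Within polysomes, 232 higher and 341 lower became 685 and 874, 71 and 125, 966 and 1188, and 53 and 97 at 0.1 FPKM, 5 FPKM, no filter and 2-fold, and 98 and 146 with a pseudocount of 1, while TPM gave 386 higher and removing the trend 184 lower. Within sub-polysomes, 437 and 321 became 1039 and 922, 184 and 74, 1417 and 1352, and 104 and 54 in the same order, 281 and 100 with a pseudocount of 1, 209 and 1098 under TPM and 197 and 1019 with equal totals. Between fractions of METTL3 WT cells, 3068 higher and 2085 lower became 1363 and 1081 at 2-fold, with 3146, 1231 and 3617 lower at 0.1 FPKM, 5 FPKM and no filter. In METTL3 K177Q cells, 3292 and 2321 became 5595 and 1399 under TPM and 1564 and 1387 at 2-fold, with 1475 lower at 5 FPKM, 3934 without a filter and 1537 without the trend. Single genes changed direction in 32 of 395 values, 8 under TPM, 7 with equal totals, 4 when centred, 3 with size factors, 10 without the trend and 0 under the others.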
